A study of Caenorhabditis elegans with 2 samples.

Results

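The genes described here are protein-coding C. elegans genes of DNA replication and the cell cycle, and the question was which of their promoters lie at regions recovered with the tagged zinc finger protein CCCH-3. The rule for choosing them uses gene names, and takes genes of the Ensembl annotation of WBcel235 whose name starts with mcm-, orc-, cdc-, cdk-, cdt-, pcn-, rfc-, rpa-, cyb-, cyd- or cye-. The rule gave 56 of 19985 protein-coding genes, of which 43 encode products known to act in replication or the cell cycle, while 13 are known for other roles, namely 7 cyclin-dependent kinase genes and 6 genes that share only a prefix. Chromatin immunoprecipitation with an anti-GFP antibody was followed by sequencing in young adult worms of pooled sexes at 70 hours, grown from larvae that hatched after bleaching and were starved to synchronise them. The strain OP628 carries the transgene wgIs628, in which ccch-3 is fused to a TY1, EGFP and 3xFLAG tag and which also holds unc-119(+), in the mutant background unc-119(tm4063). There were 2 biological replicates of this single group, whole animals of 1 transgenic strain, and no untagged worms were among the samples.

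DNA is replicated once in each division because origins are licensed before S phase, when the origin recognition complex with CDC-6 and CDT-1 loads the MCM helicase, and are fired later by kinases. At the fork the sliding clamp PCNA, its loader (replication factor C) and the single-strand binding protein RPA support the polymerases, while cyclins with cyclin-dependent kinases drive the steps from one phase to the next. In adult worms most dividing cells are those of the germ line. All values below come from chromatin of whole animals, so a region may stem from many or few cells.

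Each region in the deposited lists has a summit and a signal value, a score by the authors' caller against a control, whose scale is not stated. Regions were ranked by signal value within their own list, rank 1 being the highest. The lists hold 30000 candidate regions for each replicate and 30000 for the pooled reads, many of them not called bound, and 218 reproducible peaks kept by the authors' irreproducible discovery rate threshold, which are ranks 1 to 218 of the pooled list. Read depth is unknown. Replicate 1 had no region with a q-value at or under 0.05, replicate 2 had 202 and the pooled list 229. The list of replicate 1 also held 16 mitochondrial regions, where replicate 2 and the pooled list held 0. Its highest signal value was 3420, beside a median of 21.2 in the same list. A promoter window covered the 1000 bp before a gene start and the 200 bp after it. All coordinates are on ce11, the UCSC name of WBcel235.

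Reproducible peaks lay in the promoter windows of 3 members, which were pcn-1, cdc-48.1 and mcm-10. A further 3 members, cdk-5, rfc-4 and cdc-14, had a pooled region among the highest 1000. The bases within 50 bp of these 6 summits are shown on the strand of the gene, 5′ to 3′, so that the gene start lies to the right, because they are the strongest member regions. They were read from the RefSeq WBcel235 genome. Capitals mark matches on either strand to the motifs searched, which are spelled out further below.
cdc-48.1 (chrII:10563500-10563600, minus strand): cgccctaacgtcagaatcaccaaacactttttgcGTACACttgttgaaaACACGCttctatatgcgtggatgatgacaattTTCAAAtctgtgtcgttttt
mcm-10 (chrIII:11317359-11317459, plus strand): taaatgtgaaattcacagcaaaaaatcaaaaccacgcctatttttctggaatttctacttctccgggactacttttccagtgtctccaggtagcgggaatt
pcn-1 (chrIV:4049646-4049746, minus strand): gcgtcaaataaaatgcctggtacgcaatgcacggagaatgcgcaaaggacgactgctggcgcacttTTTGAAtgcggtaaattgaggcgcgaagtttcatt
cdk-5 (chrIII:13466405-13466505, minus strand): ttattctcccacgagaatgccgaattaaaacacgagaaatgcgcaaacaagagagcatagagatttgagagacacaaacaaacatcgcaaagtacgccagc
rfc-4 (chrIII:6972117-6972217, plus strand): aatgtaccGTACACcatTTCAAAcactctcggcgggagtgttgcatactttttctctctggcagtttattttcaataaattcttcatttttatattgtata
cdc-14 (chrII:5594348-5594448, minus strand): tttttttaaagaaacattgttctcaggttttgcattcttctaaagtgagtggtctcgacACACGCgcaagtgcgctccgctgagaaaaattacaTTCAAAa

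The highest member region was at cdc-48.1 (WBGene00007352, II, 10560036 to 10563407, minus strand), which encodes the AAA ATPase p97. CDC-48 extracts proteins from chromatin and other sites, and in C. elegans it is known to remove the licensing factor CDT-1. The region (10563350 to 10563749) had a signal value of 165 and rank 38 in the pooled list, with its summit 143 bp upstream of the gene start in intergenic sequence. In replicate 1 it had rank 70 (signal value 69.9, q-value 0.125) and in replicate 2 rank 45 (signal value 90.0, q-value 0.0102). It was thus among the highest 218 regions of each replicate list, and the q-value in replicate 1 was the lowest that this list holds. No other protein-coding gene had this summit in its window. With piRNA genes left out, the nearest other gene start was that of the snoRNA gene C06A1.9, 486 bp away.

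The peak at mcm-10 (III, 11317570 to 11326664, plus strand) was the next. MCM-10 is a replication fork factor that helps to activate the MCM helicase. The region (11317209 to 11317608) had a signal value of 133 and rank 83 in the pooled list, with its summit 161 bp upstream of the start. In replicate 1 it had rank 130 (signal value 59.7, q-value 0.125) and in replicate 2 rank 82 (signal value 74.6, q-value 0.0102). The start of mcm-10 lies within teg-1, a gene on the opposite strand (11312213 to 11318231), so this summit is also in an intron of teg-1, 822 bp downstream of its start.

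The peak at pcn-1 (IV, 4047937 to 4049448, minus strand), the gene of the clamp PCNA, was the lowest of the 3. Its region (4049496 to 4049895) had a signal value of 105, a q-value of 0.0217 and rank 162 in the pooled list, with its summit 248 bp upstream in intergenic sequence. The replicates differed here. In replicate 2 its rank was 135 (signal value 64.6, q-value 0.0102), while in replicate 1 it was 1588 (signal value 34.7, q-value 0.511). The 2 replicate summits lay 209 and 292 bp upstream of the start. Had replicate 1 been used by itself, its first 218 regions would have held cdc-48.1 and mcm-10 but not pcn-1.

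**Figure D1:**
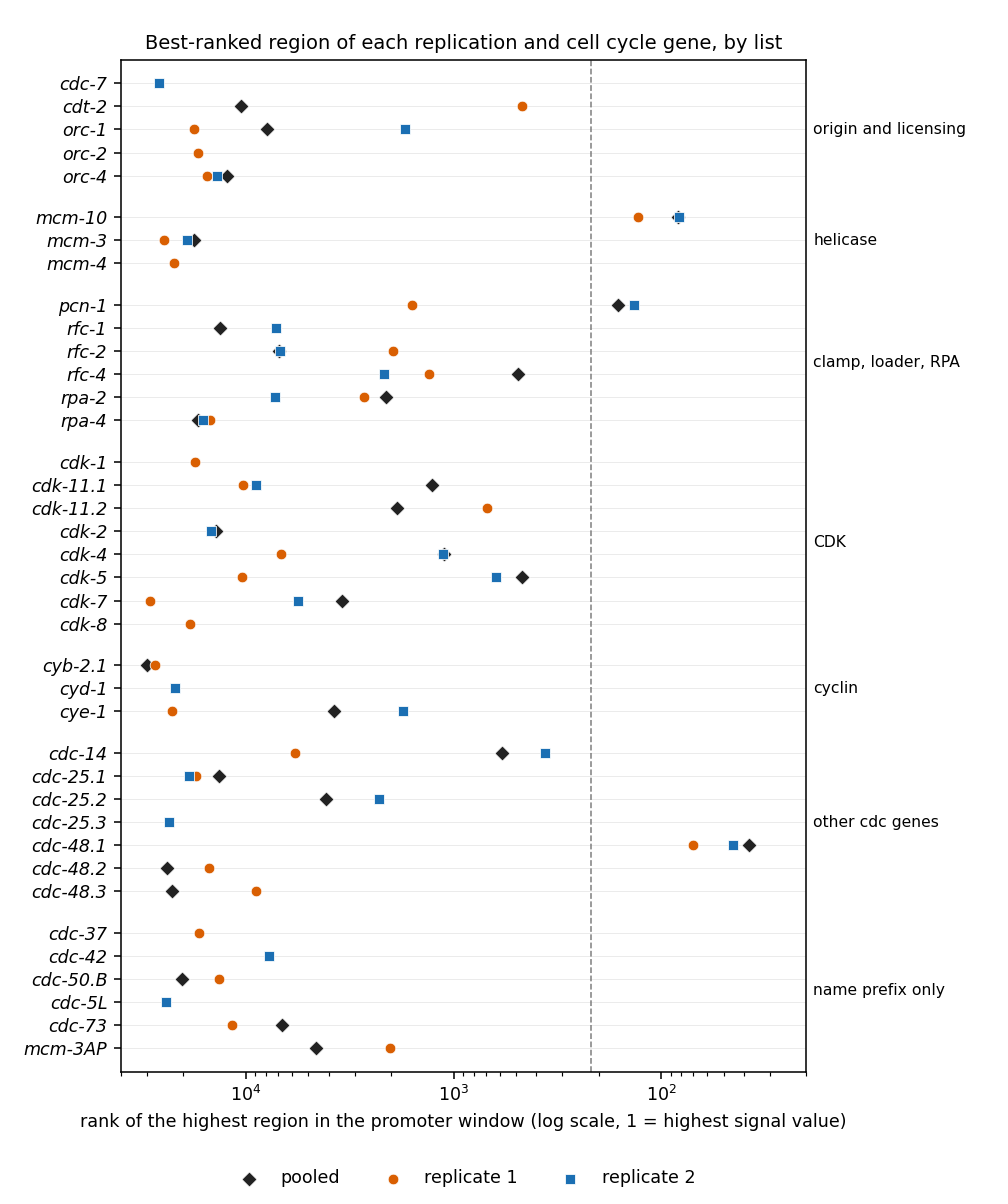
The rank of the highest region in the promoter window (x axis, log scale, high-ranked regions to the right) for the 38 members with a region in any list, ordered by role. Diamonds are the pooled list, circles replicate 1 and squares replicate 2, and the dashed line is rank 218, the last reproducible peak. For cdc-48.1 and mcm-10 all 3 symbols lie right of the line, and for pcn-1 replicate 1 does not.

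The counts by role that follow rest on few genes each and have no test, and they stand beside shares over all protein-coding genes of 34.9% with any pooled region, 2.31% with one among the highest 1000 and 0.881% with a reproducible peak. Among the origin and licensing genes, 3 of 9 had a pooled region, a share near that of all genes, and 0 had one among the highest 1000. The origin recognition complex genes orc-1 and orc-4 had best pooled ranks of 7880 and 12344. The orc-1 summit lay 374 bp upstream, in a coding exon of dhs-11 and also in the window of that gene. The stretch between orc-1 and orc-4, which lies on the same strand, is 111 bp long, so much of the window of orc-4 is the body of orc-1. The best pooled summit of orc-4 lay 105 bp downstream of its start, in an intron of orc-4 itself. A lower pooled summit in its window (rank 20821) lay in an intron of orc-1. For cdt-2, the substrate receptor of the ubiquitin ligase that removes CDT-1, the replicates were far apart. It had rank 470 in replicate 1 (signal value 42.3), no region in replicate 2 and rank 10603 in the pooled list. The pooled summit lay 690 bp upstream of cdt-2, in the 3′ UTR of T01C3.3. When each summit went only to its nearest protein-coding start, orc-1 and cdt-2 were not counted. A single low-ranked replicate region was found at orc-2 (rank 17019, replicate 1) and at cdc-7, the kinase gene that activates the loaded helicase (rank 26261, replicate 2). The genes orc-3, orc-5, cdc-6 and cdt-1 had no region in any list.

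Of the 6 genes of the MCM2-7 helicase, mcm-3 alone had a pooled region, a count too small to set apart from the 34.9% of all genes. It was at rank 17722, with ranks 24697 and 19273 in the replicates. The pooled summit lay 496 bp upstream of mcm-3, in the 5′ UTR of C25D7.15 on the other strand. When each summit went only to its nearest protein-coding start, mcm-3 was not counted. At mcm-4 a region of replicate 1 had rank 22320, and mcm-2, mcm-5, mcm-6 and mcm-7 had none in any list. Absence from a list of 30000 regions says that no region was listed, not that no reads fell there.

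Of the genes of the clamp, its loader and RPA, 6 of 8 had a pooled region, beside 34.9% of all genes. The loader subunit gene rfc-4 had a region at rank 492 of the pooled list (signal value 75.7) with its summit 86 bp upstream of the start. It had rank 1309 in replicate 1 and rank 2170 in replicate 2, so both replicates ranked it lower than the pooled reads did. The same summit lay in the window of eef-1A.1, a translation elongation factor gene on the other strand, 455 bp upstream of its start, and 82 bp upstream of the start of the miRNA gene cel-mir-5549. The other loader genes had best pooled ranks of 6949 at rfc-2 and 13361 at rfc-1, while rfc-3 had no region in any list. Among RPA genes, the best pooled rank was 2112 at rpa-2, with ranks 2694 and 7285 in the replicates, and 17026 at rpa-4, and rpa-1 had none.

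The cyclin-dependent kinase genes had a pooled region in 6 of 11 cases, beside 34.9% of all genes, and a reproducible peak in 0, beside 0.881%. The highest was at cdk-5, a kinase best known from neurons, with rank 467 (signal value 76.3) and its summit 113 bp upstream of the start. That summit also lies in an intron of kel-3, an overlapping gene on the other strand. Replicate 2 ranked it 626 and replicate 1 ranked it 10453. At cdk-4, the partner of cyclin D, the best pooled rank was 1117, with the summit 174 bp downstream of the start in an intron and also in the window of F18H3.1. The overlapping regions had rank 1131 in replicate 2 and 16113 in replicate 1. The copies cdk-11.1 and cdk-11.2 had ranks 1268 and 1868, but the cdk-11.1 summit lay 950 bp upstream in a coding exon of B0495.5, and that of cdk-11.2 only 105 bp upstream in intergenic sequence. For cdk-11.2 replicate 1 gave rank 689 and replicate 2 no region. The pooled rank was 3458 at cdk-7, which activates other kinases of this family, and 13900 at cdk-2, the partner of cyclin E. Replicate 1 had a region at cdk-1, the mitotic kinase (rank 17620), and at cdk-8 of the Mediator complex (rank 18569). No list had one at cdk-9, cdk-12 or cdk-14.

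Of 6 cyclin genes, cye-1 and cyb-2.1 had a pooled region, a share near the 34.9% of all genes. At cye-1, the cyclin of entry into S phase, the rank was 3787 (signal value 52.4), with its summit 110 bp upstream of the start and shared with the window of pqn-21, and the replicate ranks were 22606 and 1749. At cyb-2.1, a B-type cyclin, the region was at rank 29856, close to the end of the list. The D-type cyclin gene cyd-1 had a replicate 2 region at rank 21877. The other B-type cyclin genes, cyb-1, cyb-2.2 and cyb-3, had none in any list.

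Among the other cdc genes, cdc-14, which encodes a phosphatase of late mitosis in yeast, had a pooled region at rank 588 (signal value 72.7). Its summit lay 971 bp upstream of cdc-14 but 316 bp upstream of ttc-4, on the other strand. This region just meets the window rule, and it was at rank 365 in replicate 2 and overlapped by rank 8604 in replicate 1. The 3 genes of the CDC-48 family were unlike in their ranks, with 38 at cdc-48.1, 23963 at its close copy cdc-48.2 and 22672 at cdc-48.3, and the last 2 had no region in replicate 2. Genes of CDC25 phosphatases, which activate cyclin-dependent kinases, had pooled ranks of 4124 at cdc-25.2 and 13495 at cdc-25.1, cdc-25.3 had a replicate 2 region at rank 23580, and cdc-25.4 had none. The gene of the anaphase-promoting complex subunit cdc-26 had none either.

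Of the 6 genes outside the kinases that share only a prefix, mcm-3AP had the highest pooled region, at rank 4577 and with rank 2030 in replicate 1. Its pooled summit lay 151 bp from the snoRNA gene F20D12.10. The elongation complex gene cdc-73 had rank 6721 and the flippase subunit gene cdc-50.B rank 20380. Each of these 3 had a region in replicate 1 and none in replicate 2. The genes cdc-37, a co-chaperone, cdc-42, a GTPase of cell polarity, and cdc-5L, a splicing factor, had regions in 1 replicate and none in the pooled list.

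In all, 3 of 56 members (5.36%) had a reproducible summit in the window, where 0.881% of all protein-coding genes did. Among the highest 1000 pooled regions the shares were 10.7% of members (6 genes) and 2.31% of all genes, and among the highest 5000 they were 25% (14 genes) and 7.8%. Any pooled region lay in the window of 28 members (50%) and 34.9% of all genes. In replicate 1 the shares with any region were 53.6% and 34%, in replicate 2 they were 44.6% and 35.1%, and both replicates had a region at 17 members (30.4%) and at 17% of all genes. Among the highest 1000 regions of replicate 1 were 4 members (7.14% against 2.06%) and of replicate 2 were 5 (8.93% against 2.6%). Counting only genes with any pooled region, 10.7% of 28 members and 2.52% of 6975 genes had a reproducible peak. The members' share was above that of all genes at each of these limits. These counts are descriptions with no test, and the genes were chosen with earlier results of these data known. The genes differ in their transcription and in the cells that use them, whose part in the shares was not tested.

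**Figure D2:**
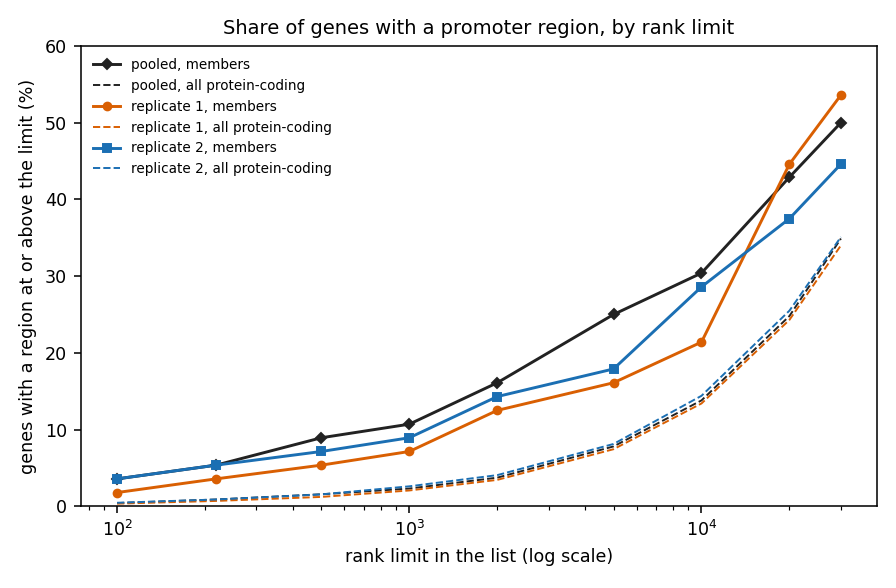
The percentage of genes (y axis) with a region in the promoter window at or above a rank limit (x axis, log scale), for the 56 members (solid lines) and all 19985 protein-coding genes (dashed lines) in the pooled list and each replicate. The member lines lie above the dashed lines at every limit, from 5.36% against 0.881% at rank 218 to 50% against 34.9% at rank 30000 of the pooled list.

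The best pooled rank had a median of 5649 over the 28 members with a region and 13412 over all 6975 genes with one. Members with a candidate were thus ranked higher at the median, as a description of these lists. The best summit was within 250 bp of the gene start in 14 of the 28 members (50%) and in 37.8% of the 6975 genes. All 3 reproducible summits were in this range. A window of 250 bp on either side held a reproducible summit in 0.415% of all protein-coding genes, where the promoter window did in 0.881%. Of the 35 pooled regions in member windows, 18 had their summit in intergenic sequence, a share that was not computed for all promoter regions. The best summit was shared with the window of another protein-coding gene in 10 of 28 members (35.7%) and in 22.3% of all genes with a region, and none of the 3 reproducible ones was shared. Pooled summits that just missed the windows lay 1091 bp upstream of orc-2, at rank 1639, and downstream of the starts of rpa-1 and cdk-8. Those at rpa-1 and cdk-8 had ranks 10585 and 13595 and lay 309 and 297 bp downstream.

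**Figure D3:**
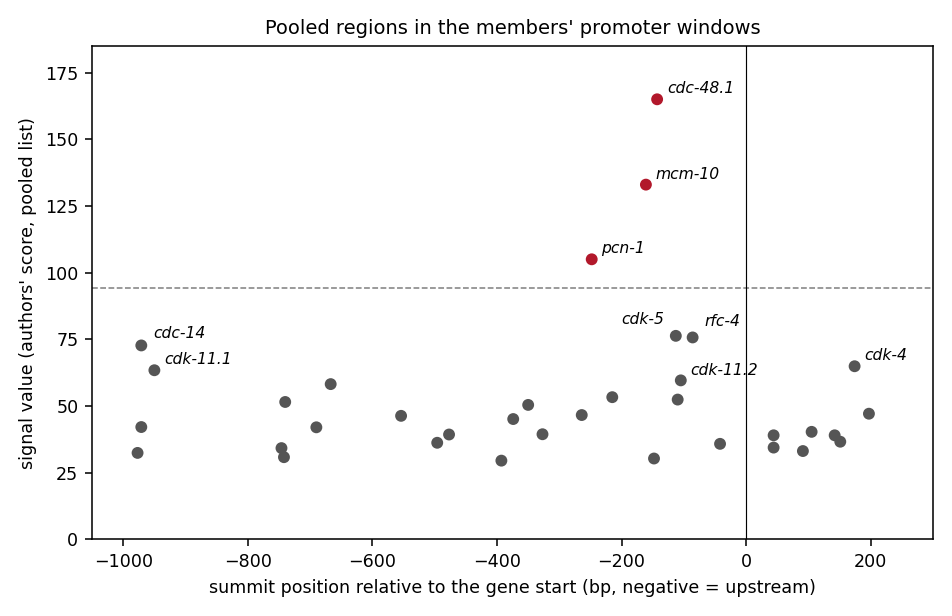
Signal value in the pooled list (y axis, the authors' score) against the summit's position relative to the gene start (x axis, bp) for the 35 pooled regions in member windows. Red points are the reproducible peaks, all above the dashed line at 94.4, the lowest signal value of a reproducible peak, and they lie 143 to 248 bp upstream. The highest point below the line is cdk-5 at 76.3.

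The replicates ranked most member regions differently. The best pooled region was overlapped by a region of both replicates in 17 of 28 members (60.7%) and in 41.6% of the 6975 genes. It was overlapped in replicate 1 alone for 8 members and in replicate 2 alone for 3. The matching counts over all genes were not made, so these 2 counts set nothing apart. Over the 17 members Spearman's rho of the replicate ranks was 0.583, and over the 14 without a reproducible peak it was 0.275. Over the 2900 genes whose best region both replicates overlap it was 0.265, and over the 2724 of them without a reproducible peak it was 0.128. These correlations are across regions that share 2 libraries and a control, and they are given as descriptions.

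**Figure D4:**
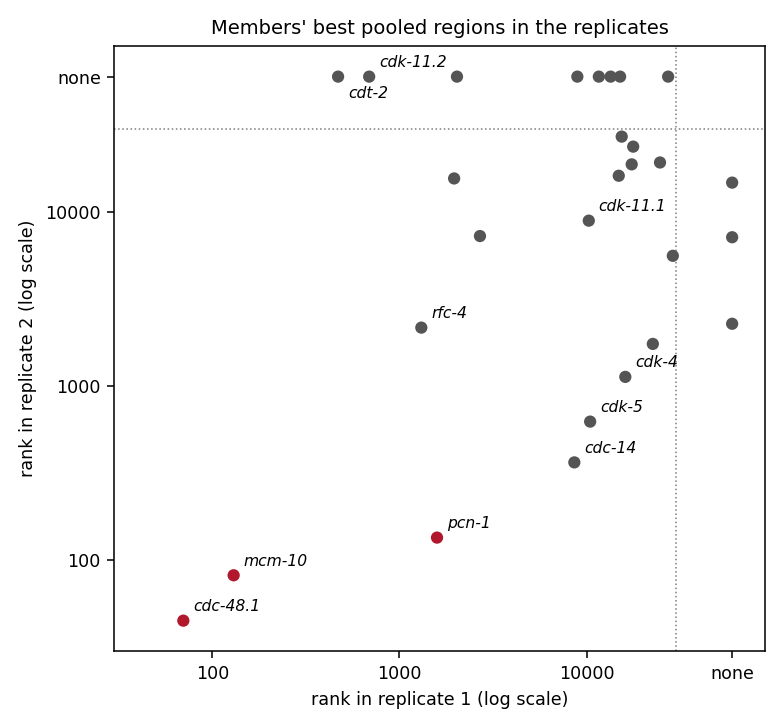
Rank in replicate 1 (x axis) against rank in replicate 2 (y axis), both on log scales, of the replicate region that overlaps each member's best pooled region, for 28 members. Red points are the reproducible peaks, and points past the dotted lines have no overlapping region in that replicate. Only cdc-48.1 and mcm-10 lie near the lower left corner, and cdt-2 and cdk-11.2 rank 470 and 689 in replicate 1 with no region in replicate 2.

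The motifs searched within 50 bp of the 35 pooled member summits, on both strands, were of 2 kinds. The first were strings known from cell cycle promoters, namely the E2F-type strings TTTCCCGC and also TTTGGCGC and also GGCGGGAA, the cell cycle homology region TTTGAA, the CCAAT box and the E-box CACGTG. The E2F-type strings can overlap one another. Among those 3 only TTTGGCGC matched at a member summit, once, at the lower-ranked region of rfc-2 (2.86%, against 0.321% of 7155 promoter summits). TTTGAA was near 31.4% of member summits and 29.2% of promoter summits, and it was found at cdc-48.1, pcn-1, rfc-4 and cdc-14 among the sequences above. CCAAT was near 28.6% and 19.9%, and CACGTG near 0% and 1.84%. In the whole promoter window, at least 1 of the 3 E2F-type strings was present in 16 of 56 members (28.6%) and in 10.5% of 19973 nuclear protein-coding genes. Of these 16 members, 6 had a pooled region and 10 had none, where 28 of all 56 members (50%) and 34.9% of all genes had one. The share over all genes that hold such a string was not computed. In pcn-1 the match lay 482 bp from the summit. The genes rpa-1, rfc-3, mcm-5, mcm-6, cdt-1 and cdc-25.4 hold such a string and have no summit in the window in any list.

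The second kind were 6-mers picked earlier from these same reproducible peaks, so their presence at the reproducible peaks is no new evidence. GTACAC matched at 4 of 35 member summits (11.4%, against 2.95% of promoter summits), at cdc-48.1, rfc-4, cye-1 and rpa-2. ACACGC matched at 2 (5.71% against 2.19%), at cdc-48.1 and cdc-14. Both member shares include cdc-48.1, which is itself one of the reproducible peaks the 6-mers were picked from. GGCCGA matched at 0 member summits (1.89% of promoter summits). The same held for CGGCCA (2.12%), and for GGCCTA (2.03%). The sequences at mcm-10 and cdk-5 held none of the motifs searched. GC content within 50 bp was 39.6% at both cdc-48.1 and mcm-10 and 48.5% at pcn-1. The mean was 36.3% (SD 7.85 over 35 summits) for the members, 34.6% (SD 8.77) for all 7155 promoter summits and 44.5% (SD 9.55) for the 218 reproducible peaks.

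Other genes of the pathway were taken from a list of 79 names of polymerases, helicase cofactors, checkpoint, cyclin inhibitor and mitosis genes, of which 78 matched the annotation. As with the members, the names were chosen with earlier results of these data known, and no test was made. A reproducible summit lay in the window of 2 of them (2.56%), and any pooled region in 24 (30.8%), where 0.881% and 34.9% of all genes had one. Among the highest 1000 pooled regions the share was 5.13% (4 genes), beside 2.31% of all genes. The 2 with a reproducible summit were lin-35, the Retinoblastoma homologue that represses cell cycle genes, and hpr-9, a subunit of the checkpoint clamp. At lin-35 the rank was 65 in the pooled list (signal value 144), 39 in replicate 1 and 117 in replicate 2, with the pooled summit 191 bp upstream of the start. At hpr-9 the ranks were 205, 209 and 224 (pooled signal value 96.0), with the pooled summit 86 bp upstream. Below the reproducible list, the checkpoint gene mrt-2 had rank 475 and psf-1, of the GINS complex that joins the MCM helicase, had rank 802. The pooled list had no region at the other GINS genes of the list, psf-2, psf-3 and sld-5. The E2F factor gene efl-1 had rank 4123, and the ribonucleotide reductase genes rnr-1 and rnr-2 had ranks 14302 and 9360.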

How the data were processed

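Peak lists of tagged CCCH-3 in 2 biological replicates were used as deposited. Per the deposited records of the files, regions for each replicate and for the pooled reads were called by the authors against the same control alignment on ce11, and the reproducible list was thresholded from them. No source used here names the aligner, the caller, the IDR threshold or what the control was. Chromatin was sonicated to 200 to 800 bp, per the labels. The deposited signal value is the authors' score per region, used only within its list, and the deposited −log10 q-value was converted to a q-value. The summit is the deposited start plus offset. The median region width is 400 bp in the pooled list, so distances under the fragment length are not resolved.

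Summits were assigned to every gene whose window held them, with Ensembl release 115, Python 3.11.15, pandas 2.3.3 and numpy 2.4.6. Sequences came from RefSeq WBcel235. The assignment was tested on simulated data, where 0 of 200 planted summits were placed wrongly. Shares of members stand beside those of all protein-coding genes, with no test, since there is 1 group. Members with a reproducible summit are given first and in full, and the others follow by role, with fuller values for those among the highest 1000 regions. The members and lists were chosen with earlier results of these data known. Alternatives changed the window, the assignment, the peak set and the replicate.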

Additional observations from a re-analysis of the deposited data

How the results depend on the processing

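Of 25 alternative values, 23 stayed within 1.5 times the reported count. This limit also takes in falls from 3 to 2 and from 6 to 4. Several alternatives could not lower the count of members with a reproducible summit. Wider windows, any overlap and any transcript start only keep or add members, and all 3 genes act in replication or the cell cycle. Their summits lie 486 bp or more from a small RNA gene (here a tRNA, snoRNA or snRNA gene only), outside the 100 bp limit. In the 250 bp window pcn-1 stayed narrowly, with its summit at 248 bp. The count of members with a reproducible summit stayed 3 (5.36%) in most alternatives, while the share of all protein-coding genes moved. That share was 0.415% within 250 bp, 1.17% from 2000 bp upstream to 500 bp downstream and 0.59% with nearest starts only. With any overlap it was 0.956%, with any transcript start 0.931% and without summits near small RNA genes 0.786%. Over the 43 members that act in replication or the cell cycle the count was also 3 (6.98% against 0.881%). It was 2 in the upper 109 peaks (3.57% against 0.455%), where pcn-1 was lost. No reproducible list can be made from 1 replicate, so the first 218 regions of the other replicate stood in for it. Without replicate 1 they held 3 members (5.36% against 0.881% of all genes), and without replicate 2 they held 2 (3.57% against 0.696%). With nuclear regions only, an alternative chosen after seeing the data, those without replicate 2 also held 2 (0.686% of all genes). When only summits up to 250 bp from the start counted, narrower by construction, 17 members (30.4%) had any pooled region, against 16.3% of all genes. The count was 37 (66.1% against 55.9%) in the wider window. With nearest starts only it was 23 (41.1% against 29.6%), without orc-1, cdt-2, mcm-3, cdk-11.1 and cdc-48.2. With a single replicate list it was 25 without replicate 1 (44.6% against 35.1%) and 30 without replicate 2 (53.6% against 34%). The count among the highest 1000 was 5 within 250 bp (8.93% against 1.06% of all genes) and 5 with nearest starts only (8.93% against 1.77%). Both left out cdc-14. In the wider window the count was 7 (12.5% against 3.56%). It was 14 (25% against 7.8% of all genes) among the highest 5000, which holds more regions by construction. It was 5 without replicate 1 (8.93% against 2.6%) and 4 without replicate 2 (7.14% against 2.06%). No paired analysis was possible because there is 1 group and no result comes from a test. The lists give no depth, and no member region of replicate 1 had a q-value at or under 0.05.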
